A study of Mus musculus with 25 samples.

Results

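The first mixed mitotic-meiotic cluster is a group of mouse testis cells whose name in the authors' table combines differentiating spermatogonia with leptotene and zygotene cells, and it is the first of 2 clusters so named. It was taken as the authors assigned it in the deposited cell table and held 1057 of the 4528 cells sequenced. The cells came from testes at postnatal day 10 and had been sorted for a 4N DNA content, which cycling cells after replication and cells of meiotic prophase both have. The series has 1 wild-type (WT) library and 2 knockout (KO) libraries of Ythdc2, here KO A and KO B, and the labels place the mutant lines of the study on a hybrid C57BL/6 and DBA/2 background. The sources used here do not say which part of the gene the knockout removes or whether the libraries came from different animals. The sample titles carry the word embryo beside P10, and the age label was followed. The other clusters that the authors named are undifferentiated spermatogonia, differentiating spermatogonia, leptotene-zygotene spermatocytes and the second mixed cluster.

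YTHDC2, which joins a YTH domain to a DExH-box helicase, works with the germ-cell proteins MEIOC and RBM46, and male germ cells need it to leave the mitotic programme and go on through meiotic prophase. Spermatogonia divide by mitosis until retinoic acid induces STRA8, after which they replicate their DNA once more and enter leptotene and zygotene, the stages in which programmed DNA breaks form and homologous chromosomes begin to pair. Cytosolic ribosomal proteins, the gene family that most sets this cluster apart, are encoded by short, abundant transcripts, and many of these begin with a tract of pyrimidines through which mTOR signalling controls their translation.

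The cluster was almost entirely KO. It held 24 of 1151 WT cells, or 2.09% (exact 95% binomial interval 1.34 to 3.09), 592 of 1522 KO A cells, or 38.9% (36.4 to 41.4), and 441 of 1855 KO B cells, or 23.8% (21.9 to 25.8). The shares of the 2 KO libraries did not overlap within counting error, so KO A carried the larger share. No cell barcode was shared between libraries. Intervals and floors in this text cover counting error only.

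Ythdc2 itself was low in the KO cells of the cluster, at 61.5 UMIs per 1e6 UMIs of the summed cells (CPM) in KO A and 63.9 in KO B, against 271 in the WT cells of the cluster and 266 in WT leptotene-zygotene cells. Both KO libraries thus still carried reads of the gene, and a UMI count does not show which part of a transcript it came from. Its partners were present in both genotypes, Meioc at 397 CPM in KO A, 432 in KO B and 652 in WT, and Rbm46 at 316, 324 and 322.

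The name of the cluster was checked against transcripts of both programmes after each cell had been thinned to 4000 UMIs. The median KO A cell held 31 UMIs of the 24 mitotic M-phase genes listed (Plk1, the cyclin A and B genes, Aurora kinases and others) and 25 UMIs of the meiotic genes, and the median KO B cell held 34 and 26. At least 10 UMIs of each were found in 98.8% of the KO A cells and in 98.4% for KO B, and in 100.0% of both without thinning. That by itself did not separate the cluster, since 88.5% and 93.1% of differentiating KO A and KO B cells and 94.4% of WT leptotene-zygotene cells met the same mark. The balance differed: differentiating cells held medians of 40 and 15 in KO A and 44 and 16 in KO B, and WT leptotene-zygotene cells 19 and 51. The cluster lay between these, and next to the second mixed cluster, with 32 and 32 in KO A and 35 and 31 in KO B. Across the cells of the cluster the 2 sums were nearly unrelated (Spearman's rho 0.04 in both KO libraries, over 592 and 441 cells that share a library).

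The markers given with the cluster were shared with the second mixed cluster. Chd9, a chromatin remodeller, stood at 64.1 CPM in KO A and 68.3 in KO B, at 51.9 and 55.7 in the second mixed cluster, at 7.89 and 10.8 in differentiating KO cells and at 12.5 in WT leptotene-zygotene cells. Mthfd1l, a mitochondrial enzyme of one-carbon metabolism, stood at 23.9 and 26.4, against 18.2 and 12.6 in the second mixed cluster and 3.71 and 3.56 in differentiating cells. Elovl1, which elongates very long fatty acids, and Tmem51, a membrane protein, stood at 26.1 and 19.0 and at 11.3 and 10.7 in the cluster. Undifferentiated cells came close for these last 2, Elovl1 at 20.9 CPM in WT (13.9 and 11.7 in KO) and Tmem51 at 10.3 in KO A. All 4 were therefore high against differentiating and leptotene-zygotene cells. Not one of the 4 was 1.5-fold above every other cluster in both KO libraries.

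Transcripts of other testis cells were nearly absent from the cluster. The 6 peritubular myoid genes listed summed to 2.19 CPM in KO A, 4.82 in KO B and 17.0 in WT, against 1303 to 2789 in the undifferentiated cluster of the same libraries. Stromal genes (6 measured of 7 listed) summed to 4.24 to 7.16 CPM, with Col3a1, Dcn and Tcf21 at 0, and Sertoli genes (7 of 10) to 12.7 to 31.0 CPM, with Gata4 at 0. Leydig (1 measured of 7), leukocyte (1 of 8) and red blood cell genes (2 of 6) reached at most 1.99 CPM, and so few genes show little. Endothelial genes (3 of 6) summed to 50.9 to 63.3 CPM, of which Egfl7 gave 50.9 to 62.1 and Pecam1 and Tie1 stood at or under 0.796. Undifferentiated spermatogonial genes, 11 measured of 12, summed to 22.5 CPM in KO A and 24.1 in KO B, against 759 and 740 in the undifferentiated cluster. Genes listed for pachytene and later stages (7 measured of 12) summed to 188 CPM in KO A, 213 in KO B and 292 in WT.

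Cells of the cluster were shallow and rich in mitochondrial transcripts. The median cell held 8149 UMIs in KO A, 8563 in KO B and 9515 in WT, and 10.4%, 9.02% and 12.3% of them were mitochondrial. Second mixed cells held 16099 UMIs in KO A and 16156 in KO B with 4.73% and 4.28% mitochondrial, and WT leptotene-zygotene cells 12210 UMIs with 5.50%. Differentiating cells lay between these in KO, at 9669 and 11798 UMIs and 9.80% and 7.03%. The quartiles of UMIs in the first and second mixed clusters did not overlap (7084 to 9483 against 13254 to 19060 in KO A, 7363 to 9993 against 13536 to 19002 in KO B). In the deposited table no cell has fewer than 3000 genes or more than 19.96% mitochondrial UMIs. The median of the cluster was 83.5% of the median of the whole KO A library and 70.8% of that of KO B. The part of depth and mitochondrial share in the gene differences below was not tested, and values from thinned cells and from cells of low mitochondrial share are given beside them.

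**Figure D1:**
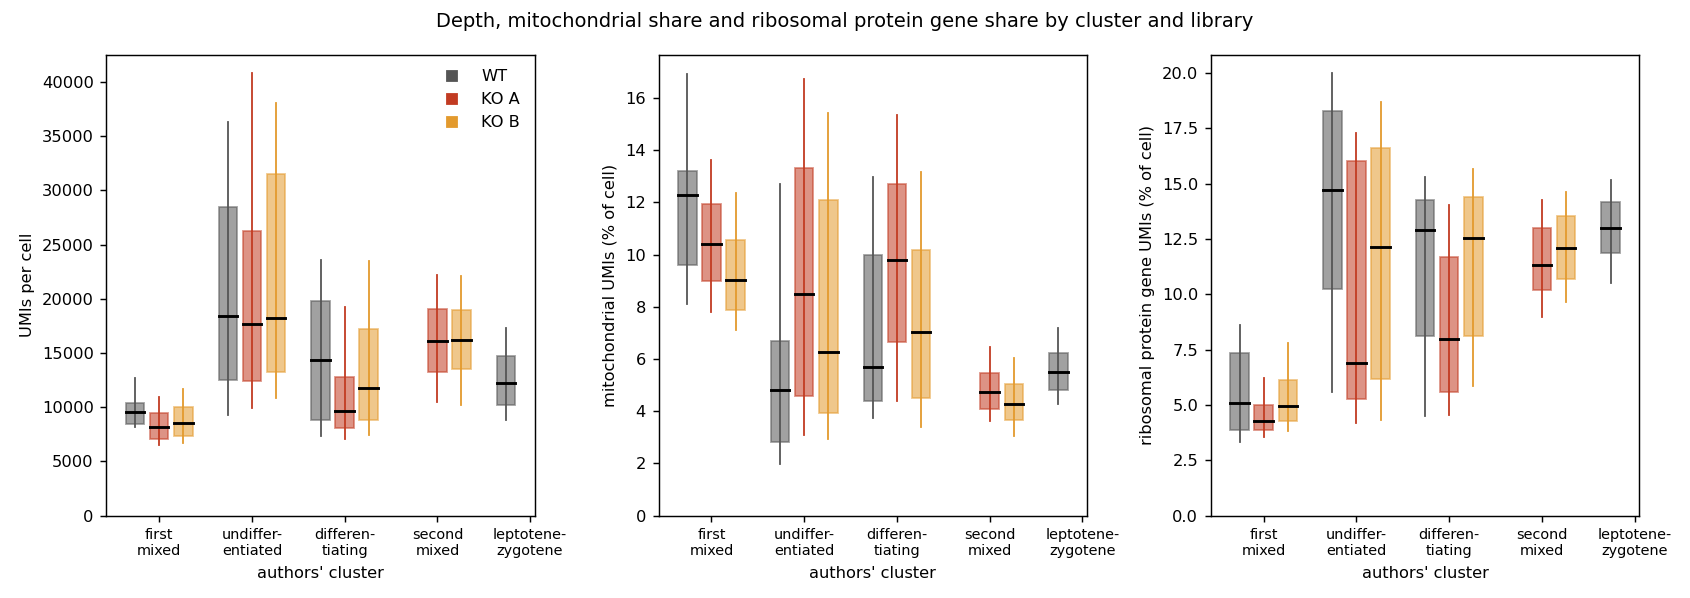
UMIs per cell, mitochondrial share and share of UMIs from 78 ribosomal protein genes (vertical axes) by the authors' cluster and library, for groups of at least 20 cells. Black lines are medians over cells, boxes quartiles, and thin lines the 10th to 90th percentiles. The first mixed cluster has the lowest ribosomal protein gene share in each library, with medians of 4.30% in KO A and 4.97% in KO B.

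Genes were compared with every other cluster as a description, with no test, because the clusters had been made from these same values. A gene was counted as higher when its CPM in the cluster was at least 1.5-fold that in each of the other 4 clusters in both KO libraries, with at least 20 CPM in the cluster, and as lower by the mirrored rule with at least 20 CPM in each other cluster. The leptotene-zygotene cluster, which holds no KO cell, entered through WT. Of 5024 genes that could be counted as lower, 81 were (1.61%), and 62 of these 81 encode cytosolic ribosomal proteins. Of 6784 that could be counted as higher, 18 were (0.265%), and not one was a ribosomal protein gene. Lower thus meant mostly 1 family, and higher a small and mixed set. Just inside the limit lay Faap100 at 1.501-fold higher and Mad2l1 at 1.509-fold lower, and just outside it Sertad3 at 1.493-fold higher and Eef1g at 1.49-fold lower.

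The lower ribosomal protein genes covered both subunits. Rpl17, of the large subunit, stood at 319 CPM in KO A and 369 in KO B, against 1123 and 1671 in differentiating cells, 1330 and 1533 in undifferentiated cells, 1756 and 1831 in second mixed cells and 1669 in WT leptotene-zygotene cells. Rps19, of the small subunit, stood at 411 and 501, against 1326 to 2004 in the other 3 clusters with KO cells and 1889 in WT leptotene-zygotene cells. Rpl35 stood at 148 and 160 against 475 to 711. In these 3 genes every other cluster lay at least 2-fold above both KO libraries of the cluster. Relative to the nearest other cluster in the library where the gap was smaller, Rpl17 was lower by 1.82 on the log2 scale (-1.82), and Rps19 (-1.69), Rpl35 (-1.68), Rpl32 (-1.67), Rps10 (-1.64), Rps12 (-1.62), Rps15a (-1.62), Rps14 (-1.58), Rpl9 (-1.56), Rplp0, which forms the ribosomal stalk (-1.45), Rps3 (-1.44) and Rpl37a (-1.43) followed. Some ribosomal protein genes have near-identical processed copies that can share reads, and copies such as Rpl27-ps3 and Rpl10-ps3 were among the lower genes too.

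Of the 78 ribosomal protein genes, 74 lay below every other cluster in both KO libraries by some amount. The 4 that did not were Rps21, Rps20, Rpl4 and Rps4x. Rps20 stood at 2554 CPM in KO A and 2660 in KO B, against 2245 and 2747 in differentiating cells. Rps4x, which lies on the X chromosome, stood at 48.8 and 62.2, close to its 47.5 and 52.3 in differentiating cells and below its 148 and 161 in second mixed cells. The family was therefore lower in nearly all members but not by a common factor.

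The 19 lower genes that are not among the 78 had varied roles. Eef1a1, the elongation factor that brings tRNA to the ribosome, stood at 853 CPM in KO A and 1009 in KO B, against 1649 and 1889 in differentiating cells and 1914 and 1934 in second mixed cells. Rack1, a protein of the small subunit surface, stood at 306 and 339 against 585 and 706 in differentiating cells. The initiation factor subunit Eif3h, the ribosome assembly factor Nsa2, the ribosomal protein paralog Rpl22l1 and Tpt1, which is known to carry a pyrimidine tract, were also among the 19, and translation factors were not counted as a list. Further members were Ndufa11 and Ndufs8 of respiratory complex I, the ATP synthase subunit Atp5e, the proteasome subunit Psmb3, the translocon subunit Sec61g, Selenow and the spindle checkpoint gene Mad2l1, and 4 were predicted genes. These 19 members were listed after their values were seen.

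Lower genes were compact. Their median genomic span was 3139 bp, against 24047 bp over the genes that could be counted as lower. This largely restates the family, since all 78 ribosomal protein genes had a median of 3152 bp. The 19 lower genes outside the family, with short copies among them, had a median of 3272 bp. The median log2 ratio of KO A cells to second mixed cells was 0.05 over the 25% of genes with the shortest spans and 0.20 over the 25% with the longest, and 0.07 and 0.14 in KO B. Malat1, a nuclear RNA, took 0.598% of the UMIs of the median KO A cell and 0.585% for KO B, against 0.286% and 0.289% in second mixed cells. Differentiating cells held 0.336% in KO A and 0.314% in KO B. Undifferentiated cells held 0.643% and 0.499%, so a high Malat1 share was not particular to the cluster.

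The sequence at the start of a few leading genes is shown because ribosomal protein transcripts are known for their pyrimidine start. Each line runs from 10 bases before the listed start to 20 bases from it, on the gene's own strand, and capitals mark runs of at least 7 C or T bases (cut off where the line ends). Sequences and positions are from RefSeq on GRCm38.p6.
Rpl35: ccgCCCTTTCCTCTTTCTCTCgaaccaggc
Rps15a: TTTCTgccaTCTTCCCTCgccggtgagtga
Rps12: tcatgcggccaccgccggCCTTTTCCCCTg
Mycl: gatataaagcagtcgggaaacaatgcgcct
Bahd1: ccgcctgcccggccccggcccccaggagga
Sppl3: aggagcgagccgccggggcccccggccgcg
These lie at chr2:39005112-39005141 (minus strand), chr7:118116128-118116157 (minus), chr10:23787190-23787219 (minus), chr4:122995921-122995950 (plus), chr2:118901605-118901634 (plus) and chr5:115011514-115011543 (plus), in that order. The first 3 are lower in the cluster and hold such a run, which in Rps12 begins only after the listed start. The last 3 are higher and hold none. The lines are picked examples and do not stand for their sets, whose counts follow. The table matched 57 of the 78 ribosomal protein genes, and 40 of the 57 (70.2%) held a run of at least 7 C or T within 20 bases before to 30 bases after a listed start. The same was true of 7 of the 16 matched higher genes, among them Tfeb, Twnk and Wfs1, of 2 of the 4 given markers, and of 8634 of the 27025 genes in the table (32%).

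Other motifs were searched on both strands over the 300 bases of the table's windows, and none of them contains another. A gene counted when any of its windows held a match. CCAAT was found in 8 of 16 higher genes and 18 of 57 ribosomal protein genes, against 41.1% of all genes in the table. The E-box CACGTG was found in 3 of 16 higher genes (Fam178b, Hdac5 and Slc37a3) and 6 of 57 ribosomal protein genes, against 8.09% of all genes. The NRF1 site GCATGCGC, the ATF4 composite site TGATGNAA and the E2F sites TTTCGCGC and TTTGGCGC were found in 0 of 16 higher genes, against 3.05%, 4.51%, 0.374% and 0.585% of all genes. A match is a description of letters, and the absence of one says nothing about the factor.

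The 18 higher genes stood 1.5- to 1.7-fold above the nearest other cluster. Mycl, a transcription factor of the MYC family, was at 39.2 CPM in KO A and 42.6 in KO B, against 22.9 and 19.6 in second mixed cells, 18.0 and 14.3 in differentiating cells and 8.83 in WT leptotene-zygotene cells. Tfeb, the transcription factor that drives lysosomal genes, was at 37.2 and 34.3, against 24.4 and 20.6 in second mixed cells. Twnk, the helicase that replicates mitochondrial DNA, was at 44.0 and 47.5, against 24.4 and 27.7 in second mixed cells and 28.7 in WT leptotene-zygotene cells. That both KO libraries lay above every other cluster in these 3 genes follows from the rule that picked them.

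The remaining leading higher genes have varied roles. Dnaja3, a mitochondrial co-chaperone, stood at 146 and 137 CPM against at most 89.1 elsewhere among the groups of the rule. Others were Slc37a3, a sugar-phosphate carrier family member, the zinc finger gene Zfp768, Bahd1, a heterochromatin protein, Sppl3, a membrane protease, Cog4 of the Golgi tethering complex, Wfs1 of the endoplasmic reticulum membrane and the helicase family gene Dhx32. mt-Nd3, a complex I subunit encoded in mitochondria, was at 705 CPM in KO A and 721 in KO B, against 467 and 445 in undifferentiated cells and 352 and 354 in second mixed cells. It was the 1 mitochondrially encoded gene of 12 that met the rule, although 9 of 12 in KO A and 10 of 13 in KO B were 2-fold above second mixed cells.

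The higher set depended on scaling and on the use of both libraries. Without KO A 66 genes were counted, and without KO B 63. With TMM scaling of mean normalised UMIs, which moved the median log2 ratio of all genes to second mixed cells from 0.16 to -0.0031 in KO A and from 0.13 to -0.013 in KO B, 1 of the 18 was still counted, Mycl, and the other 11 leading genes stood 0.26 to 0.56 above the nearest cluster on the log2 scale. Leaving ribosomal protein and mitochondrial genes out of the total, an alternative chosen after seeing the data, gave 5 genes, 4 of them among the 18. After thinning each cell to 4000 UMIs, 17 were counted, of which 5 were among the 18. The count of lower ribosomal protein genes was 55 with TMM and 51 after thinning.

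**Figure D2:**
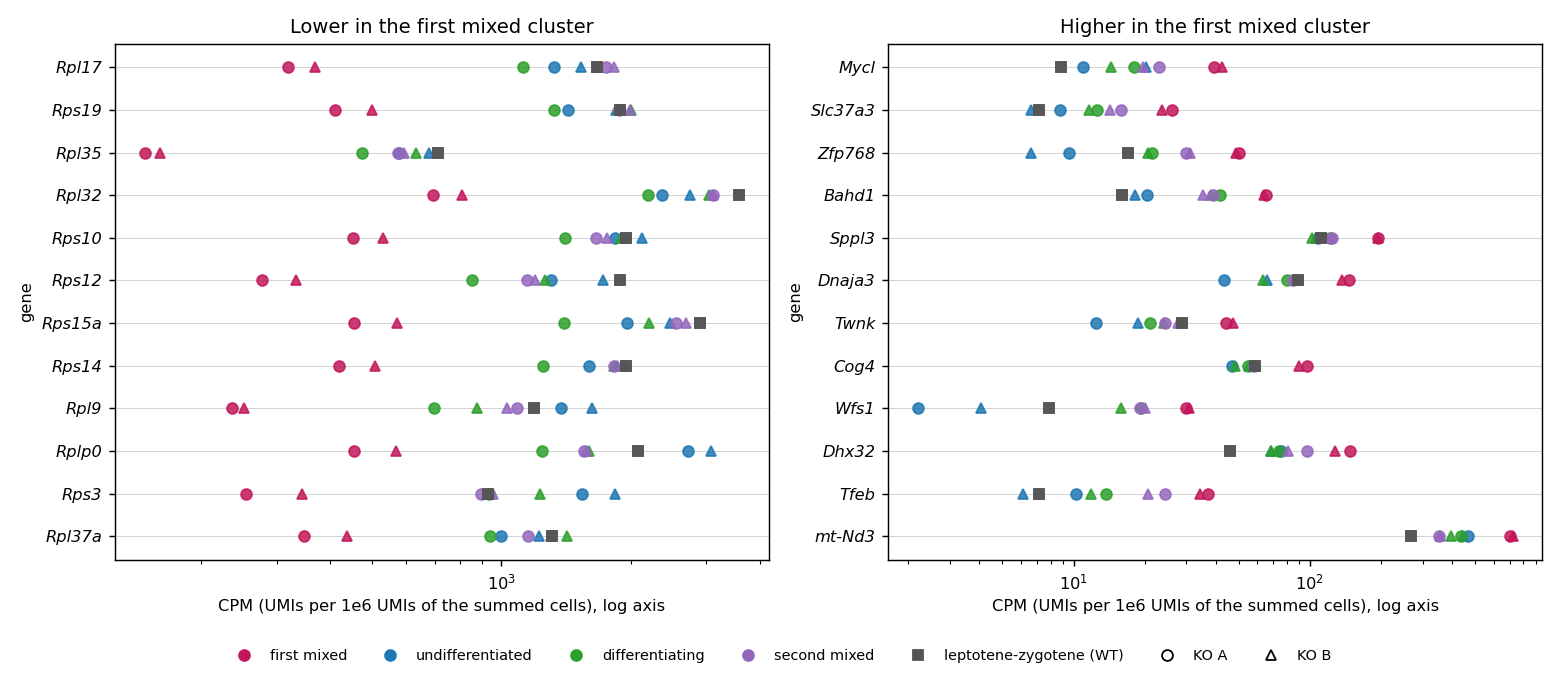
CPM (log axis) of the 12 genes furthest below (left) and above (right) every other cluster, by cluster. Circles are KO A, triangles KO B, and squares WT leptotene-zygotene cells. The left panel shows a wide gap, with Rpl17 at 319 and 369 CPM against 1123 or more elsewhere, and the right panel a narrow one.

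Seen per cell, ribosomal protein genes took 4.30% of the UMIs of the median KO A cell (quartiles 3.88 to 4.98), 4.97% in KO B (4.29 to 6.11) and 5.08% in WT (3.88 to 7.33). Second mixed cells held 11.3% and 12.1%, WT leptotene-zygotene cells 13%, and differentiating cells 12.9% in WT, 12.5% in KO B and 8.0% in KO A. The share was lower than the 10th percentile of second mixed cells in 98.5% of the cluster's cells in KO A and 96.8% in KO B. It was below the 10th percentile of differentiating cells in 63.7% and 71.2%, and below that of undifferentiated cells, whose medians were 6.88%, 12.2% and 14.7% in KO A, KO B and WT, in 43.8% and 26.1%. The cluster thus overlapped with both.

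The ribosomal protein share was nearly unrelated to mitochondrial share and depth within the cluster. Across KO A cells of the cluster the ribosomal protein share had Pearson's r of -0.03 with the mitochondrial share and 0.10 with UMIs, and in KO B -0.07 and 0.03 (592 and 441 cells, which share a library). Spearman's rho with the mitochondrial share was -0.04 in KO A and -0.13 in KO B. The clustering used these same values and the cluster spans a narrow range of the share. These correlations therefore cannot show the part of mitochondrial share or depth, which was not tested. Among cells of 6000 to 10000 UMIs and 5% to 10% mitochondrial share, the median ribosomal protein share was 4.30% in KO A (163 cells) and 5.02% in KO B (199 cells) of the cluster. In that window it was 6.40% (76 cells) and 9.90% (94 cells) in differentiating cells, and 9.55% in WT ones (65 cells). Second mixed cells held 9.56% (15 cells) and 11.3% (24 cells), and WT leptotene-zygotene cells 12.1% (85 cells). At 12% to 20% mitochondrial share and any depth, the cluster held 4.34% in KO A, 5.06% in KO B and 4.85% in WT. Undifferentiated cells came close there, at 5.82%, 5.55% and 5.47% in the same order. Differentiating cells held 7.21%, 8.51% and 5.31% (91 WT cells), so the gap was small in WT. With all cells of 8% or more mitochondrial UMIs left out, the family's summed level in the cluster was still lower than in second mixed cells by 1.24 in KO A and 1.10 in KO B on the log2 scale (-1.24 and -1.10).

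**Figure D3:**
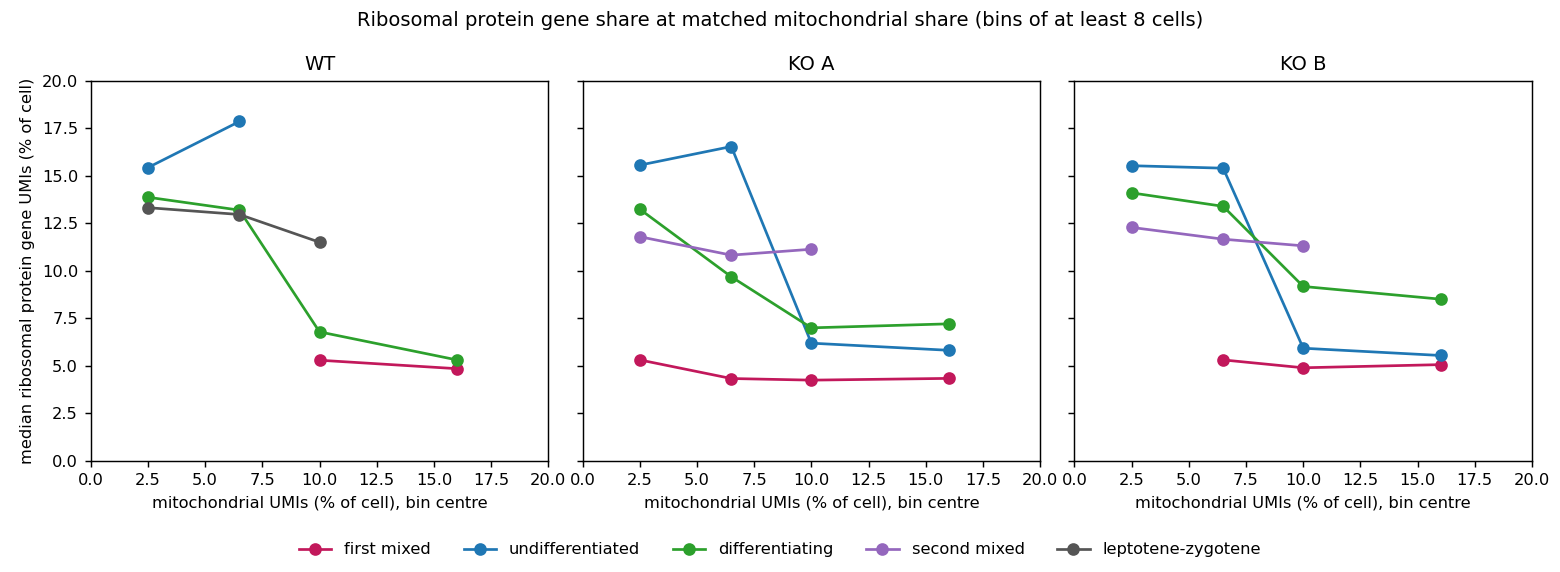
Median share of UMIs from ribosomal protein genes (vertical axis) by mitochondrial share of the cell (horizontal axis, centre of bins 0 to 5, 5 to 8, 8 to 12 and 12 to 20%), for each library and cluster with at least 8 cells in the bin. The first mixed cluster stays at 4.25% to 5.31% in both KO libraries. Differentiating KO A cells go from 9.69% in the 5 to 8% bin to 7.00% in the 8 to 12% bin. In the 12 to 20% bin undifferentiated cells come close to the cluster, at 5.82% in KO A and 5.55% in KO B.

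Cells with a low ribosomal protein share were not limited to the cluster. With a limit of 8%, set after seeing the data, 97.0% of KO A cells of the cluster (574 of 592), 91.8% of KO B cells (405 of 441) and 21 of 24 WT cells were low, and 28, 48 and 5 cells lay within 1 point of the limit. In second mixed cells 2.69% in KO A and 1.76% in KO B were low, and in WT leptotene-zygotene cells 1.17%. Differentiating cells were low in 50.1% of cases in KO A, 24.3% in KO B and 24.9% in WT, and undifferentiated cells in 53% (35 of 66), 38.9% (35 of 90) and 17.8% (8 of 45). The cluster held 65.0% of all low cells of KO A, 62.6% of those of KO B and 10.7% of those of WT.

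Low differentiating cells shared some traits of the cluster and not others, with the mitochondrial share and depth moving too. Their median mitochondrial share was 10.8% in KO A, 10.0% in KO B and 11.7% in WT, against 8.31%, 5.86% and 4.95% in the other differentiating cells. They held 8715, 8718 and 7875 UMIs, in the same order, against 11648, 13321 and 16967. The 19 lower genes outside the ribosomal family were lower in low than in other differentiating cells in 19 of 19 cases in each library. Their median log2 ratios were -0.94 in KO A, -0.85 in KO B and -1.18 in WT. Beside them stand all genes outside the family with a mean of at least 20 CPM. Of these, 2069 of 6805 were lower in KO A, 2002 of 6672 in KO B and 2206 of 6386 in WT. The cells were split on ribosomal protein UMIs, and copies such as Rpl27-ps3 and Rpl10-ps3 among the 19 can share reads with those genes. Whether the 4 predicted genes among the 19 do so was not tested. For such copies the direction was largely set by the split, so 19 of 19 overstates the count of genes free to go either way. Of the 18 higher genes, at any level, 18 were higher in low cells in KO A, 18 in KO B and 17 in WT, where Slc37a3 was the exception. Most genes outside the ribosomal family with a mean of at least 20 CPM moved the same way. Of these, 4736 of 6805 were higher in KO A, 4670 of 6672 in KO B and 4180 of 6386 in WT. Those of the 18 at a mean of 20 CPM or more over all differentiating cells numbered 14, 14 and 11, and all were higher. Their median log2 ratios were 0.56, 0.53 and 0.72, against 0.16, 0.16 and 0.18 over all genes of that level outside the ribosomal family. Recombination genes did not follow, with medians of -0.11 in KO A, -0.04 in KO B and -0.11 in WT. The part of depth, mitochondrial share or cell state in it was not tested.

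The second mixed cluster was the nearest by gene content. Among genes at 20 CPM in at least one side, 12 of 6918 were 2-fold higher (0.173%) and 77 lower (1.11%) than second mixed cells in both KO libraries. The counts were 469 (6.49%) and 254 (3.51%) of 7228 against differentiating cells, and 1331 (17.1%) and 1094 (14%) of 7800 against undifferentiated cells. Inside the cluster the 2 KO libraries differed in few genes, with 1 gene 2-fold higher and 3 lower in KO A than in KO B among 7091. Compared with differentiating KO cells, 8 of 15 measured recombination genes were 2-fold higher in each KO library, with a median log2 ratio of 1.03 in KO A and 1.02 in KO B, beside 0.07 and 0.11 over all genes. M-phase genes had medians of -0.32 and -0.24 in the same comparison.

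The KO cells of the cluster were then set beside WT leptotene-zygotene cells, a cluster that holds no KO cell. This too is a description, since genotype and cluster coincide. Of 7036 genes, 1095 were 2-fold higher (15.6%) and 335 lower (4.76%) in both KO libraries. The split depended on scaling. The median log2 ratio of all genes was 0.25 in KO A and 0.24 in KO B. TMM moved it to -0.11 and -0.12 and gave 652 higher and 761 lower genes, so higher genes made up 76.6% of counted genes by CPM and 46.1% by TMM.

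Many mitotic genes were higher. Of 24 M-phase genes, 15 were 2-fold higher than in WT leptotene-zygotene cells and 0 lower, with a median log2 ratio of 1.31 in KO A and 1.499 in KO B. With TMM 12 were 2-fold higher. Plk1, the kinase that drives entry into and passage through M phase, stood at 328 CPM in KO A and 330 in KO B, against 41.0 in WT leptotene-zygotene cells. Bub3, of the spindle checkpoint, stood at 159 and 187 against 20.1, and Aurka, the centrosomal Aurora kinase, at 245 and 264 against 37.4. Both libraries lay far above the WT stage for these 3 genes. Bub1 went the other way, at 434 and 395 against 610, and Top2a, the topoisomerase of chromosome condensation, differed little, at 1301 and 1321 against 1316.

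Several spermatogonial genes were higher as well. Sohlh1, a transcription factor of differentiating spermatogonia, stood at 117 CPM in KO A and 115 in KO B against 15.5, Dmrtb1 at 119 and 145 against 18.8, and Kit, the receptor that marks these cells, at 88.0 and 92.6 against 20.8. Of 9 such genes 4 were 2-fold higher and 1, Prdm9, lower. Stra8 stood at 1175 and 1089 against 1658, which is under 2-fold. S-phase genes were near the background of all genes, with 4 of 20 higher and 0 lower and medians of 0.16 in both libraries (-0.18 and -0.17 with TMM). One of the 4 was Cdt1, a licensing factor, at 48.2 and 37.6 against 9.39. Of 7 immediate early genes 5 were higher, and of 13 one-carbon and serine genes 6 were higher and 0 lower (4 and 1 with TMM), Phgdh at 27.9 and 32.0 against 4.05.

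The genes furthest above WT leptotene-zygotene cells were Cox7b, a subunit of cytochrome oxidase, at 239 CPM in KO A and 246 in KO B against 9.57, then Tcea3, Camk2n1, Rflnb, Prdx3, Tuba1b, March9, Mex3d, Zbtb14 and Ndrg1. Prdx3, a mitochondrial peroxidase, stood at 42.0 and 39.3 against 2.02. Tuba1b, an alpha-tubulin with near-identical relatives that can share reads, stood at 59.7 and 68.3 against 3.50. In differentiating KO cells Cox7b stood at 210 and 213 CPM and Camk2n1 at 52.7 and 49.3, whereas Tuba1b stood at 26.6 and 23.5 and March9 at 6.77 and 4.28 there.

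Recombination and synapsis genes were lower. Of 19 recombination genes 9 were 2-fold lower and 0 higher, with a median log2 ratio of -1.02 in KO A and -0.95 in KO B. Of 15 synaptonemal complex and cohesin genes 9 were lower and 0 higher, with medians of -1.15 and -1.11. TMM gave 13 and 10 lower. Spo11, the enzyme that makes meiotic DNA breaks, gave 1 UMI in KO A and 8 in KO B, or 0.199 CPM (exact Poisson interval 0.00504 to 1.11) and 2.03 (0.876 to 4.00), against 20.4 (16.8 to 24.6) in WT leptotene-zygotene cells. Rad51ap2 stood at 17.3 and 15.7 CPM against 121, and Rad21l, a meiotic cohesin subunit, at 21.7 and 19.3 against 149. Meiob, which binds single-stranded DNA in recombination, stood at 8.16 and 4.82 against 52.8. Not all meiotic genes were low: Rec114 stood at 98.1 and 96.7 against 106, and the cohesin gene Rec8 at 126 and 108 against 62.9.

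Other genes far below were Figla, an oocyte transcription factor, Eaf2, an elongation factor partner, Maoa, Nacad, Gfy and Etaa1os. Figla stood at 14.9 CPM in KO A and 9.90 in KO B against 129, and Eaf2 at 25.5 and 26.7 against 225. Ribosomal protein genes took part here too, with 51 of 78 lower and 0 higher and medians of -1.48 and -1.19. The gap to this stage thus included M-phase genes above, and recombination, synapsis and ribosomal protein genes below.

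**Figure D4:**
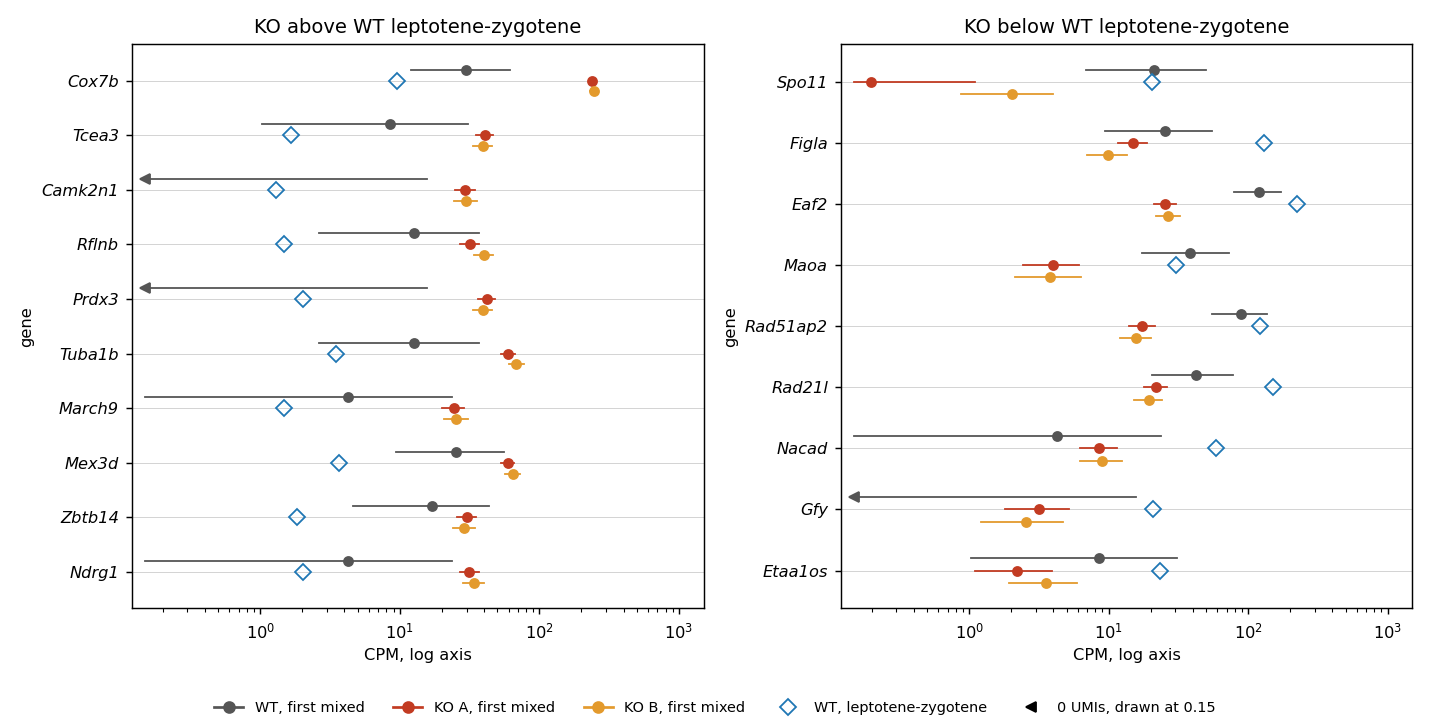
CPM (log axis) of the 10 genes furthest above (left) and of 9 genes far below (right) WT leptotene-zygotene cells (open diamonds) in the KO cells of the first mixed cluster. Filled circles are the cluster's cells by library, lines are exact Poisson 95% intervals (not drawn below 0.15), and left-pointing triangles mark 0 UMIs. Both KO libraries lie together on one side of the diamond in each gene, and the 24 WT cells lie with the diamond for Spo11, Maoa and Rad51ap2.

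The last comparison asked how KO and WT cells differed inside the cluster. It rests on 24 WT cells with 236004 UMIs, of which 2 cells were called doublets and kept, against 592 KO A cells with 5025032 and 441 KO B cells with 3940439. Mean normalised UMIs per cell were tested on log2(value + 0.01), a scale that understates changes of low genes, with limma and Benjamini-Hochberg adjustment and libraries weighted by their cells. The lone WT library was assumed to vary as the KO libraries do, and genotype and library cannot be told apart for it. Of 4528 genes, 13 were called higher in KO (0.287%) and 1 lower (0.0221%). Most genes thus gave no call, and 282 had an unadjusted p under 0.05. The counts depended on the test: edgeR on recovered UMIs gave 196 higher and 144 lower, DESeq2 29 and 23, and limma without weights 1264 and 1287.

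The called gene that fell was Ythdc2, with 2.90 normalised UMIs per cell in WT against 0.624 in KO A and 0.666 in KO B, a log2 change of -2.16 (SE 0.44, limma adjusted p = 0.0165). The call was lost when no filter on low genes was used (limma adjusted p = 0.105), on CPM of sums (limma adjusted p = 0.0785) and in cells under 8% mitochondrial UMIs, which leave 3 WT cells (limma adjusted p = 0.999, log2 change -1.66). In those cells 12 of the 13 calls of higher genes were lost too, with Cox8a at 1.25 and Reep5 at 1.77 (limma adjusted p = 0.999 for both). Among those that rose, 2 belong to cytochrome oxidase. Cox8a held 6.22 in KO A and 6.00 in KO B against 1.14 in WT, a log2 change of 2.42 (SE 0.36, limma adjusted p = 0.000255). Cox7b held 2.35 and 2.44 against 0.276, a change of 3.07 (SE 0.43, limma adjusted p = 0.000105). Both KO libraries were several-fold above WT and close to each other.

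Other called genes had varied roles. Lonp1, the protease of the mitochondrial matrix, rose by 2.22 (limma adjusted p = 0.00636, and 0.0567 with no filter) and Mdh2, malate dehydrogenase of the citric acid cycle, by 1.56 (adjusted p = 0.0489) from 2.23 to 6.63 and 6.55 normalised UMIs per cell. Reep5, which shapes the endoplasmic reticulum, rose by 4.44 (limma adjusted p = 4.43e-06) from 0.0795 to 1.95 and 1.91 normalised UMIs per cell, and Tubb5, a beta-tubulin with similar relatives, by 3.65 (adjusted p = 2.02e-05). Klf2, a zinc finger transcription factor, rose by 3.10 and Rhob, a small GTPase of the endosome and cytoskeleton, by 2.36. The remaining called genes were Bola2, Fam96b, Ube2r2, Ywhah and Tcn2.

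Few WT UMIs stood behind most of these. Of the 13, 10 had at most 10 WT UMIs, from 2 to 52 over the 13. Reep5 had 2 WT UMIs, 986 in KO A and 745 in KO B, a ratio of CPM of 22.8 with an exact counting interval of 6.30 to 188. Ube2r2 (ratio 11.6, interval 3.20 to 96.0) and Tcn2 (8.49, 2.34 to 70.3) had 2 as well, and Klf2 had 3 (8.58, 2.93 to 41.7). Each interval stays above 1, and its upper end is wide. The given markers did not pass the filter on low genes and were not tested, and Chd9 had 1 WT UMI (ratio 15.6, 2.78 to 616), Mthfd1l 2 (2.95, 0.807 to 24.5), Elovl1 1 (5.42, 0.963 to 215) and Tmem51 1 (2.61, 0.457 to 104). For the last 3 the interval includes 1. Of the 3 called genes with more than 10, Cox8a had 27 (ratio 5.36, 3.68 to 8.14), Ywhah 17 (3.43, 2.14 to 5.91) and Mdh2 52 (3.06, 2.33 to 4.10).

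Many of the called genes also stood higher in the KO differentiating cells than in WT ones, which are other cells of the same libraries. That held in both KO libraries for 12 of the 13, the exception being Fam96b, and by 2-fold for 5. Over all 4528 tested genes, 42.0% were higher in both KO libraries of the differentiating cluster and 0.243% (11 genes) by 2-fold. Cox8a stood at 159 CPM in WT differentiating cells and 616 and 653 in KO ones, and Mdh2 at 375, 778 and 734. Reep5 stood at 9.80 CPM in WT differentiating cells and 27.1 and 20.7 in KO ones, far below its 196 and 189 CPM in the KO cells of the first mixed cluster and 257 and 230 CPM in those of the second.

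Few list genes were called between genotypes inside the cluster. Of 37 tested nuclear respiratory chain genes 2 were called higher, Cox7b and Cox8a, and 0 lower, with a median log2 change of 0.16 beside -0.01 over all genes. Of 3 tested immediate early genes 1 was called, Klf2, and all 3 lay above 0 (median 1.35). Of 8 differentiating spermatogonial genes 0 were called, with a median of 0.996 and 6 of 8 above 0. Over all 4528 tested genes, 2217 lay above 0 and 2311 below. No gene was called in either direction among 24 M-phase genes (median -0.12), 12 recombination genes (-0.16), 11 synaptonemal complex and cohesin genes (-0.17) or 76 ribosomal protein genes (-0.35, with 59 of 76 below 0). With 1 library on the WT side this does not show that the genotypes were alike. In simulated data of the same size, 70% of 4-fold and 5% of 2-fold changes were recovered, with 2 false calls. The simulated libraries were drawn from the mean of the KO libraries with equal small noise. They hold no difference in depth per cell or mitochondrial share, so these figures do not give the error rates of the real test.

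Of the 9 genes named as far below WT leptotene-zygotene cells, Eaf2 alone passed the filter for the genotype test inside the cluster, and it was not called. Eaf2 held 1.19 normalised UMIs per cell in WT and 0.253 and 0.257 in KO, a log2 change of -2.18 with a limma adjusted p of 0.118. Rad51ap2 stood at 89.0 CPM in WT from 21 UMIs (exact ratio of KO to WT 0.187, 0.118 to 0.311) and Maoa at 38.1 from 9 UMIs (0.102, 0.0482 to 0.242). Spo11 gave 5 WT UMIs (0.0474, 0.0143 to 0.180). The interval of the ratio included 1 for Figla (0.223 to 1.39), Rad21l (0.259 to 1.03) and Etaa1os (0.0821 to 2.87). Nacad and Gfy had 1 and 0 WT UMIs, so no direction can be read for them. Nacad stood at 8.56 and 8.88 CPM in KO against 4.24 in WT (interval of the ratio 0.358 to 82.1). Gfy stood at 3.18 and 2.54 CPM in KO against 0 in WT (interval of the WT value 0 to 15.6). For Rad51ap2 and Maoa the 24 WT cells were near WT leptotene-zygotene cells, at 121 and 30.6 CPM. The ribosomal protein share had a median of 5.08% in the WT cells of the cluster. Those cells were placed in the cluster by these same values, so their low share says nothing about genotype.

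**Figure D5:**
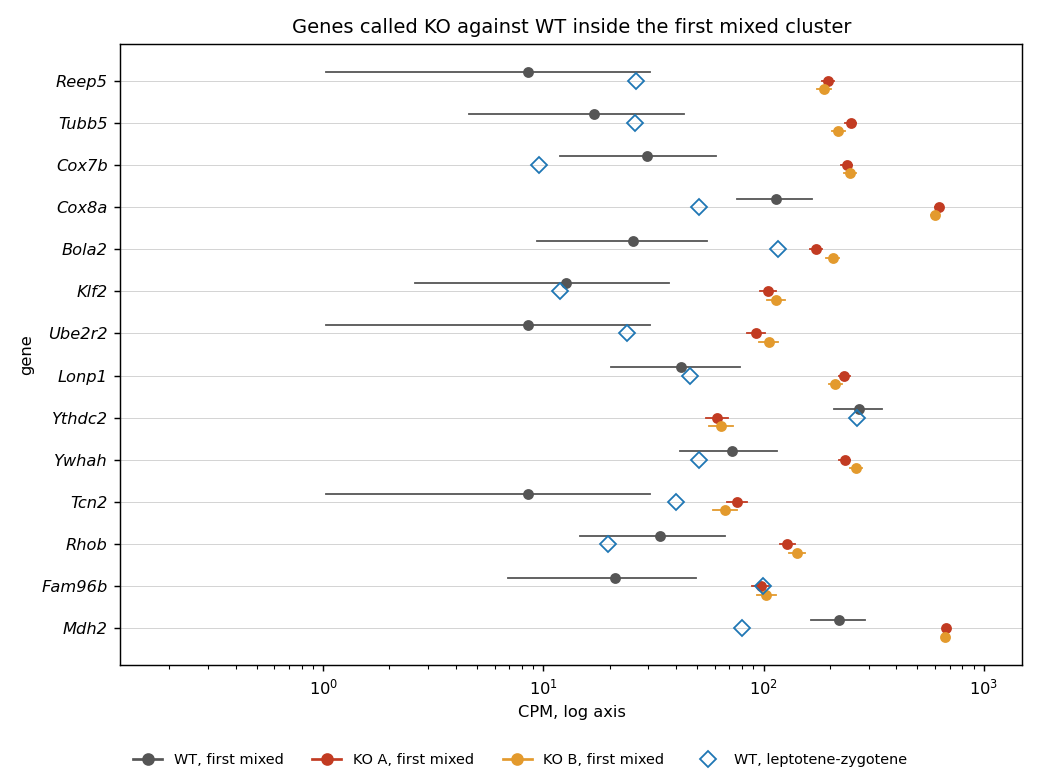
CPM (log axis) of the 14 genes called between KO and WT inside the first mixed cluster, by library, with exact Poisson 95% intervals, and in WT leptotene-zygotene cells (open diamonds). In 13 genes both KO libraries lie above WT, and in Ythdc2 below it, and the WT intervals are wide because the cluster holds 24 WT cells.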

How the data were processed

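Single-cell RNA-seq libraries of 1 WT and 2 KO samples were used, and the bulk RNA-seq and iCLIP files of the series were not used here. Per the submitters' processing notes, Cell Ranger 3.0.2 and Scanpy were used with mm10/GRCm38. The matrix deposited by the authors holds natural log values, ln(1 + UMI count / size factor), per the values. The deposited cell table gives UMI and gene counts, the mitochondrial fraction, a size factor (a score) and a log2 motif sum, and a deposited gene table gives a motif score, which the text does not use. Undoing the log gave whole UMIs for 100.0% of 19333906 values above 0, within 0.01 (99.9% of the deposited UMIs), and these were summed per library and cluster and divided by the total to give CPM.

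Cells took the authors' clusters and the library number of the table. The KO library numbers could not be tied to a particular KO sample. No cell was removed. Scrublet in Scanpy 1.11.5 called 22 of 4528 cells doublets (8 in the cluster), which were kept, and leaving them out was an alternative. Total depth was 16342955 UMIs (WT), 18089957 (KO A) and 25447581 (KO B). The members, gene lists and motifs were chosen with earlier results of these data known. Ratios used a floor of 3 counts per library.

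Genotypes inside the cluster were tested with limma 3.58.1 (R 4.3.3; genes with a mean of at least 0.5, pseudocount 0.01, empirical Bayes with trend, 1 residual and 28.5 prior degrees of freedom, adjusted p under 0.05) on mean normalised UMIs. The smallest exact p for 1 library against 2 is 0.333, and no label ties libraries to separate animals, so p values reflect library spread that may be technical. edgeR 4.0.16 and DESeq2 1.42.0 on recovered UMIs were alternatives, because the deposited values are not counts. The test was also run on simulated data, in which the libraries differed only by the set changes and by equal small noise.

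Named genes were the 4 given markers, the 12 furthest above and below every other cluster, the 10 furthest above and below WT leptotene-zygotene cells, the 10 smallest p in each direction within the cluster, and examples from the lists. Predicted genes were counted and not named, and 1 gene below WT leptotene-zygotene cells is not reported here. Bola2, Fam96b and Mdh2 of the called genes, the lower genes outside the ribosomal family and the genes next to the limit were named after their values were seen.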

Additional observations from a re-analysis of the deposited data

How the results depend on the processing

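The 12 leading lower genes stayed past the 1.5-fold limit under all alternatives run, and the lower ribosomal family counts were 51 to 65. Genes higher than every other cluster numbered 66 without KO A and 63 without KO B (the rule then needs 1 library only), 11 at 50 CPM, 41 with nuclear genes only in the total, 38 in cells under 8% mitochondrial UMIs, 1 with TMM and 5 without ribosomal and mitochondrial genes. The leading genes against WT leptotene-zygotene cells stayed past 2-fold where they passed the level filter (8 of 20 at 50 CPM, 17 thinned, 19 under 8% mitochondrial UMIs, 20 in the others). Against that cluster, 547 were higher at 50 CPM, and TMM gave 652 higher and 761 lower.

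Within the cluster, genes called higher and lower in KO numbered 1264 and 1287 without weights, 96 and 4 at a filter of 0.05, 13 and 0 with no filter, 8 and 0 on CPM of sums, 22 and 3 without doublets, 69 and 0 in cells under 8% mitochondrial UMIs (3 WT cells; 1 of the 13 among the 69; added after seeing the data), 196 and 144 with edgeR and 29 and 23 with DESeq2 (790 genes without an adjusted p). The cause was not tested. All 13 higher genes were also called without weights, at the 0.05 filter, without doublets and with edgeR, 9 with DESeq2, 10 at a pseudocount of 0.1, 8 on CPM of sums and 7 with no filter. Ythdc2 was not called with no filter, on CPM of sums or in cells under 8% mitochondrial UMIs. Without KO A or KO B no test is left, and the named changes kept their sign.

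No paired analysis was possible because the WT library is alone and the library columns carry no replicate number of the labels. The depth of 24 WT cells limits what can be seen of low genes.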
